A study of Xenopus laevis with 46 samples.

Results

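Stage 9 animal pole explants of wild type *Xenopus laevis* were compared after trichostatin A (TSA) and after its vehicle DMSO, each given from the 2-cell stage until explants were collected at the blastula stage. There were 2 libraries with TSA and 2 with vehicle, 4 of the 46 libraries of the study, and all genes of the count table were considered. Of 49281 genes listed, 22067 held enough reads to be tested, 12654 had no read in these 4 libraries, and 14560 had too few. The question was how inhibition of histone deacetylases changes the transcriptome of cells that are still pluripotent. The rest of the study covers the same treatment at stage 13, the BET bromodomain inhibitor IBET762 with its own DMSO libraries, and explants that were uninjected or programmed toward neural crest by Wnt and Chordin.

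Animal pole cells of the blastula can give rise to all germ layers, and left alone they become epidermis. Histone deacetylases (HDACs) remove acetyl groups from histone tails and other proteins, and they act in corepressor complexes that hold genes silent. TSA blocks the zinc-dependent members of this enzyme family. Whole explants were dissected from the animal pole and total RNA was sequenced, so a lower level can come from fewer cells of a type or from less RNA per cell, and these cannot be told apart. Nothing in the labels says that libraries a and b of a condition came from separate clutches. The p-values therefore measure only the spread between these libraries, which may be technical.

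The libraries held 17544608 (vehicle a), 19884172 (vehicle b), 22178710 (TSA a) and 21302938 (TSA b) reads in genes, and 72.4 to 73.2% of all reads of a library fell in genes. Scaling factors lay between 0.9895 and 1.011, and the median log2 fold change over all genes tested was 0.01. The label was checked with marker genes. All 16 copies of the animal pole ectoderm genes were detected, with a summed level of 4352 and 4457 CPM (read counts scaled to a common library size) with vehicle and 3587 and 3541 CPM with TSA, and 4 of the 16 fell. Of 16 copies of marginal zone genes 9 could be tested and 3 rose, with sums of 12.3 and 11.3 CPM with vehicle and 63.1 and 69.8 CPM with TSA. Of 16 copies of vegetal genes 9 could be tested and 5 rose, with sums of 178 and 182 CPM with vehicle and 434 and 413 CPM with TSA. Over all genes tested 1.04% rose and 0.979% fell. Marker copies with almost no reads with vehicle could be tested only where they were higher with TSA. Single markers of the marginal zone and vegetal sets differed. Among marginal zone genes *tbxt.S* had 27 and 16 reads with vehicle and 507 and 435 with TSA, and *wnt8a.L* 2 and 2 reads with vehicle and 95 and 86 with TSA, while *mespa* and *myf5* had at most 3 reads in any library and *gsc* lay between 0.604 and 1.12 CPM. Among vegetal genes *mixer.L* had 2 and 6 reads with vehicle and 45 and 40 with TSA, while *gata4* and *nodal1* had at most 8 reads. In the marginal zone set 5 copies had no read with vehicle and 1 had none in any library. Of 27 vegetal maternal and germ plasm transcripts tested, 1 rose and none fell (median log2 fold change 0.08), and none rose when vehicle a or vehicle b was left out. Whether cells from outside the animal pole contributed to the results below was not tested beyond these values.

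TSA changed 446 genes. With TSA 230 genes rose (1.04% of those tested) and 216 fell (0.979%), at an adjusted p of 0.05 in edgeR's quasi-likelihood test, and 2085 genes had an unadjusted p below 0.05. These shares over all genes are the background to each list count below, and a list with few calls may lie near them. Genes that rose had a median level of 2.37 CPM with vehicle and 16.3 CPM with TSA. Genes that fell had a median of 25.3 CPM with vehicle and 5.46 CPM with TSA. The median log2 fold change was 2.66 for genes that rose and -2.24 for those that fell, and 170 and 121 of them were past 2 on the log2 scale. The libraries of both groups did not overlap at any of the 446 genes. Over all genes tested, TSA libraries lay entirely above vehicle libraries at 15.6% and entirely below at 15.5%, so absence of overlap alone marks many more genes than the test. An exact permutation test of 2 libraries against 2 gives no p below 0.333, and none was run. The count depended on 1 library, since 279 genes passed without vehicle b (169 rose, 110 fell) and 690 without TSA a (411 rose, 279 fell).

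**Figure D1:**
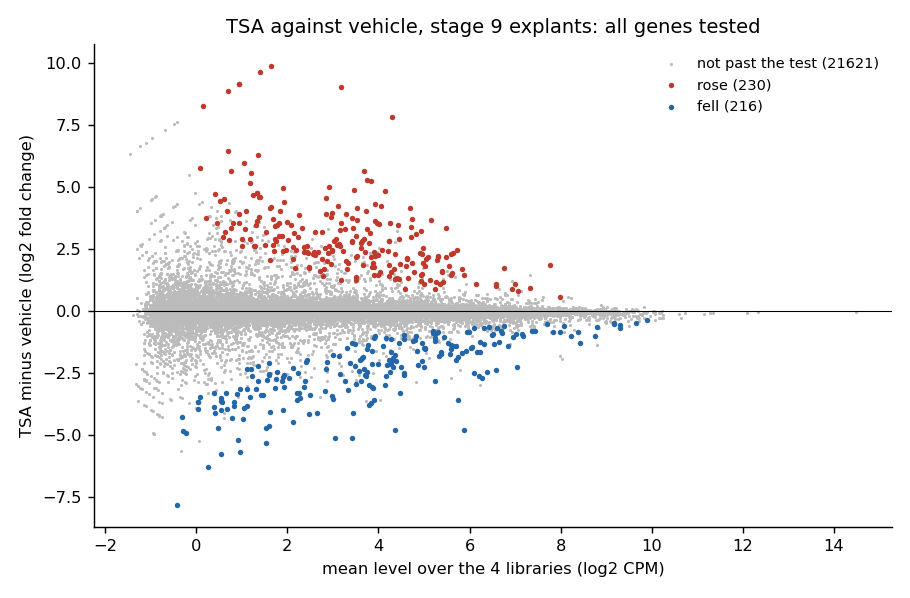
Mean level over the 4 stage 9 libraries (log2 CPM, horizontal) against the log2 fold change of TSA over vehicle (vertical), 1 point per gene tested. The 230 genes that rose (red) and the 216 that fell (blue) stand out from 21621 genes that did not pass (grey); the red points at the top left have no or almost no reads with vehicle, and their plotted change depends on a small constant added to the counts.

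Of 59 tested copies of pluripotency and blastula regulators 15 fell with TSA and 2 rose, and the median log2 fold change was -0.54, beside 0.01 for all genes. *prdm14.S*, a zinc finger regulator of pluripotency in mouse, stood at 17.5 and 14.9 CPM with vehicle and at 0.403 and 0.511 CPM with TSA (a log2 fold change of -5.13 with a standard error of 0.26, adjusted p = 0.00921). Its .L copy was low in all 4 libraries, at 2.19 to 3.51 CPM, and did not pass (0.16, adjusted p = 1). *prdm1.S*, which encodes the transcriptional repressor Blimp1, went from 34.9 and 44.9 CPM to 1.34 and 1.58 CPM (-4.77, standard error 0.22, adjusted p = 0.00921), and *prdm1.L* from 14.2 and 15.3 CPM to 0.672 and 1.86 CPM (-3.54, standard error 0.47, adjusted p = 0.0363). In each case both vehicle libraries were several-fold above both TSA libraries. *tfap2a*, the AP-2 factor of ectoderm and neural crest, fell in both copies, from 126 and 156 CPM to 26.4 and 25.1 CPM for *tfap2a.L* (-2.45, standard error 0.14) and from 70.8 and 61.1 CPM to 11.3 and 7.3 CPM for *tfap2a.S* (-2.83, standard error 0.23). *lin28a.L*, an RNA-binding protein that blocks let-7 microRNAs, fell by 3.38 on the log2 scale. The zinc finger genes *sall4.L* and *sall1.L* fell by 1.31 and 1.41, the receptor gene *fgfr4.S* by 1.42, and the homeobox gene *ventx1.2.S*, a BMP target, by 2.47. A gene model also named as *sall1* went from 86.1 and 111 CPM to 9.41 and 7.02 CPM (-3.58, standard error 0.21, adjusted p = 0.00921). *sall4.S* (-0.78, adjusted p = 0.109) and *fgfr4.L* (-0.68, adjusted p = 0.113) did not pass.

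Among the *pou5f3* genes, homologs of mammalian *Oct4*, 1 of the 6 copies tested passed. *pou5f3.3.L* stood at 817 and 762 CPM with vehicle and 794 and 740 CPM with TSA (-0.04, adjusted p = 1). Its groups overlapped, and so did those of *pou5f3.3.S* (-0.02) and *pou5f3.2.S* (-0.19). *pou5f3.2.L* lay at 712 and 891 CPM with vehicle and at 543 and 683 CPM with TSA, which do not overlap, and did not pass (-0.39, standard error 0.15, adjusted p = 0.531). *pou5f3.1.S* went from 64.6 and 79.0 CPM to 24.1 and 31.1 CPM (-1.38, standard error 0.18, adjusted p = 0.0328), a call lost without vehicle b (adjusted p = 0.0535), and *pou5f3.1.L*, at 64.8 and 112 CPM with vehicle and 33.3 and 56.5 CPM with TSA, did not pass (-0.98, standard error 0.35, adjusted p = 0.443). Between libraries of the same letter *pou5f3.1.L* differed by -0.96 (a) and -0.99 (b) and *pou5f3.2.L* by -0.39 and -0.38. With the letter as a replicate block, for which the labels give no ground, both of these and *pou5f3.2.S* passed. The SoxB1 gene *sox3*, which marks pluripotent and neural cells, fell by less than the genes above. *sox3.L* went from 336 and 311 CPM to 191 and 173 CPM (-0.83, standard error 0.08, adjusted p = 0.0204). *sox3.S* went from 756 and 745 CPM to 551 and 481 CPM (-0.54, standard error 0.08, adjusted p = 0.0465), and it did not pass without vehicle a (0.0754) or vehicle b (0.0850). *sox2.L* (-1.06, standard error 0.16, adjusted p = 0.0535), *lin28a.S* (-2.79, adjusted p = 0.0531), *klf2.L* (-1.32, adjusted p = 0.133) and *klf2.S* (-0.73, adjusted p = 0.183) did not pass. In each of these both TSA libraries lay below both vehicle libraries. Without 1 library their changes ran from -1.22 to -0.87, -3.53 to -2.30, -1.84 to -0.94 and -1.01 to -0.49, in that order. Among Krüppel-like factors *klf17.L* rose from 55.9 and 67.1 CPM to 128 and 134 CPM (1.09), as did a gene model named as *klf4* (2.74). The number of these regulators that fell was 10 without vehicle b, 22 without TSA a and 20 without TSA b.

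**Figure D2:**
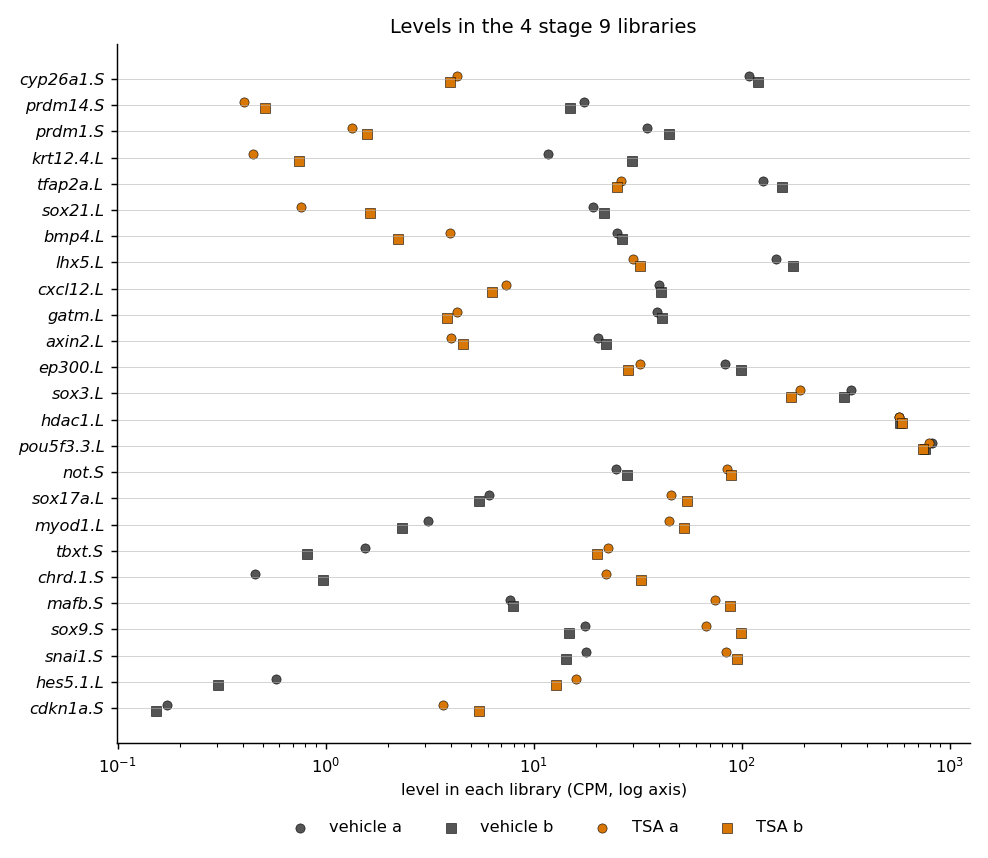
Level of 25 genes in each of the 4 libraries (CPM, log axis), with vehicle in grey, TSA in orange, library a as circles and library b as squares. The upper genes, from *cyp26a1.S* to *sox3.L*, lie lower with TSA, *hdac1.L* and *pou5f3.3.L* coincide in the middle, and the lower genes, from *not.S* to *cdkn1a.S*, lie higher with TSA.

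Among genes of epidermis and surface ectoderm 7 of 45 fell and 1 rose. The epidermal keratin gene *krt12.4.L* stood at 11.7 and 29.6 CPM with vehicle and at 0.448 and 0.744 CPM with TSA (-5.11, standard error 0.60, adjusted p = 0.0275). The vehicle libraries were far apart here, but both lay above both TSA libraries. *krt12.4.S* was lower in all libraries and did not pass (-1.5, adjusted p = 0.5). For the related keratin gene *krt12.5.S*, 104 reads with vehicle stood against 2 with TSA, a ratio of 61.5 (95% counting interval 16.6 to 515). *dlx6.S*, a homeobox gene of surface ectoderm and the plate border, went from 10.5 and 13.3 CPM to 0.717 and 0.651 CPM (-4.11, standard error 0.27, adjusted p = 0.0104), *dlx5.S* from 25.9 and 26.7 CPM to 3.63 and 2.51 CPM (-3.1), and *dlx3.L* fell by 3.31. *grhl3.S*, a regulator of the epidermal barrier, fell from 95.6 and 113 CPM to 44.1 and 45.4 CPM (-1.22, standard error 0.12, adjusted p = 0.0180). The member that rose was *tfap2e.L*, another AP-2 gene, at 0.518 and 0.254 CPM with vehicle and 6.23 and 6.6 CPM with TSA (4.05, standard error 0.39). Without vehicle b 4 members fell, and without TSA b 12. Of 36 genes of multiciliated cells and ionocytes 2 fell (5.56%) and 1 rose (2.78%), with a median of 0.01, beside 0.979 and 1.04% of all genes. *foxj1*, the master regulator of motile cilia, fell in both copies, by 2.79 for *foxj1.L* and by 1.77 for *foxj1.S*. The .S call was lost without vehicle b (adjusted p = 0.0790).

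Genes of the neural plate moved in both directions. Of 52 tested, 7 fell and 4 rose. The LIM homeobox gene *lhx5* fell in both copies, from 146 and 176 CPM to 30.0 and 32.3 CPM for *lhx5.L* (-2.37, standard error 0.13) and from 119 and 149 CPM to 19.99 and 21.6 CPM for *lhx5.S* (-2.69, standard error 0.14). *sox21*, a SoxB2 repressor of neural progenitors, fell from 19.3 and 21.7 CPM to 0.762 and 1.63 CPM for the .L copy (-4.10, standard error 0.37, adjusted p = 0.0169) and by 3.99 for the .S copy. Also lower were *irx1.S* (-1.98), *irx2.L* (-2.82) and *zic1.S* (-1.32), all of them transcription factors of the early neural plate. In the other direction, *olig2*, the basic helix-loop-helix factor of motor neuron and oligodendrocyte progenitors, rose in both copies. *olig2.S* went from 1.67 and 0.662 CPM to 27.4 and 40.1 CPM (4.87, standard error 0.44, adjusted p = 0.0169) and *olig2.L* from 5.12 and 4.07 CPM to 26.7 and 38.5 CPM (2.83, standard error 0.25). Neuronal differentiation genes with almost no reads with vehicle could be tested only where they were higher with TSA. Of 29 such differentiation genes tested, out of 91 copies in the count table, 3 rose and none fell. These were the RNA-binding protein gene *celf3.L* (0.173 and 0.204 CPM to 4.12 and 5.3 CPM), the tubulin gene *tubb2b.S* (0.345 and 0.407 CPM to 3.59 and 4.97 CPM) and the zinc finger gene *myt1.S* (1.90 and 3.36 CPM to 14 and 23.0 CPM). Without TSA a 6 of the 29 rose. None of 17 placode genes passed, but without TSA a 3 rose and 1 fell, and without TSA b 1 fell.

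*bmp4*, the ligand that promotes epidermal fate, fell in both copies, from 25.2 and 26.7 CPM to 3.94 and 2.23 CPM for *bmp4.L* (-3.07, standard error 0.30, adjusted p = 0.0184) and from 31.1 and 28.0 CPM to 7.53 and 5.58 CPM for *bmp4.S* (-2.17, standard error 0.20, adjusted p = 0.0173). Of 48 genes tested in the BMP signalling list these and the inhibitory Smad gene *smad7.L* (-1.81) fell, and none rose. The list names Chordin as *chrd*, which did not match the *chrd.1* and *chrd.2* of the files, so the copy that rose, *chrd.1.S*, is not in these counts. The *smad7.L* call was lost without vehicle b (adjusted p = 0.0771). Without vehicle b 2 members fell and 1 rose, and without TSA a 6 fell and 2 rose. *cyp26a1.S*, which encodes an enzyme that degrades retinoic acid, had the smallest adjusted p among the genes named, with 109 and 120 CPM with vehicle and 4.3 and 3.95 CPM with TSA (-4.79, standard error 0.13, adjusted p = 0.00360). *dhrs3.S*, a reductase that turns retinaldehyde back into retinol, went from 32.2 and 30.5 CPM to 8.07 and 6.51 CPM (-2.10, standard error 0.17, adjusted p = 0.0128). The homeobox genes *meis3.L* (-3.64) and *meis3.S* (-1.37) also fell, and both missed the threshold without vehicle b (0.121 and 0.0850), *meis3.S* also without vehicle a (0.0712). In all 4 of 47 genes of retinoic acid metabolism and targets fell and none rose, and 2 fell without vehicle b.

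Wnt genes split evenly, with 5 of 56 up and 5 down. The feedback gene *axin2.L* fell from 20.3 and 22.2 CPM to 3.99 and 4.56 CPM (-2.31, standard error 0.18, adjusted p = 0.0121), and *axin2.S* did not pass (-0.53, adjusted p = 0.241). The secreted Wnt-binding protein gene *sfrp2.S* fell from 105 and 125 CPM to 19.8 and 21.8 CPM (-2.47, standard error 0.13, adjusted p = 0.00921). The Tcf gene *tcf7l1* fell in both copies, by 1.71 and 1.03. Those that rose were ligands, an antagonist, a receptor and a target. *wnt9b.S* went from 0.690 and 0.713 CPM to 16.6 and 25.6 CPM (4.90, standard error 0.33, adjusted p = 0.0104), and *wnt8a.L*, the ligand of the ventrolateral marginal zone, from 0.115 and 0.102 CPM to 4.26 and 4 CPM (5.18, standard error 0.39, adjusted p = 0.0121). *dkk1.S*, a Wnt antagonist of the organizer, rose from 1.5 and 1.78 CPM to 15.6 and 26.8 CPM (3.69, standard error 0.35). The Frizzled gene *fzd8.L* (1.73) and a gene model named as cyclin D1 (2.35) rose too, the latter not without vehicle b (adjusted p = 0.0659). Without vehicle b the counts were 3 up and 3 down.

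Of 27 chemokine, apelin and complement genes 5 fell and 4 rose. Those that fell included ligands of the apelin receptor, which rose in both copies, and of Cxcr4, which rose only in its less abundant copy. *cxcr4.L*, the more abundant copy, averaged 137 CPM with vehicle and 138 CPM with TSA. The chemokine gene *cxcl12.L* fell from 40.1 and 40.8 CPM to 7.35 and 6.32 CPM (-2.56, standard error 0.14, adjusted p = 0.00921), the apelin gene *apln.L* from 19.6 and 26.2 CPM to 2.82 and 4.6 CPM (-2.62, standard error 0.30), and a gene model named as *apela* from 31.5 and 32.6 CPM to 5.51 and 6.23 CPM (-2.45, standard error 0.15). The apelin receptor gene rose from 4.37 and 6.41 CPM to 30.5 and 21.9 CPM for *aplnr.L* (2.28, standard error 0.28, adjusted p = 0.0292) and from 3.39 and 4.68 CPM to 21.4 and 15.4 CPM for *aplnr.S* (2.18, standard error 0.27, adjusted p = 0.0312). *cxcr4.S*, the receptor for Cxcl12, went from 28.0 and 24.6 CPM to 48.9 and 49.4 CPM (0.91, standard error 0.12, adjusted p = 0.0332), but not so without vehicle a (0.0608) or vehicle b (0.152), and *cxcr4.L* did not differ beyond its spread (0.01, standard error 0.11). Without vehicle a 2 members of the list rose. In the Nodal list both copies of the antagonist *lefty* rose, from 9.72 and 11.8 CPM to 42 and 33.7 CPM for *lefty.L* (1.81, standard error 0.18) and from 3.05 and 4.02 CPM to 25.0 and 22.4 CPM for *lefty.S* (2.74, standard error 0.21), whereas the type I receptor gene *acvr1b.L* fell by 1.59. Its .S copy, as abundant with vehicle, averaged 21.97 CPM with vehicle and 22.26 CPM with TSA and did not pass (0.02). FGF genes were 3 up and 2 down of 43, with the adhesion protein gene *flrt3.S* at 0.748 and 1.27 CPM with vehicle and 10.4 and 17.8 CPM with TSA (3.79, standard error 0.42) and the MAP kinase phosphatase gene *dusp6.S* lower by 1.21, a call lost without vehicle b. *dusp6.L*, at 21.1 CPM with vehicle and 25.6 CPM with TSA, did not pass (0.28). Without vehicle b 1 FGF gene fell.

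Of 45 genes of nitrogen and amino acid metabolism 3 fell and none rose. *arg1.L*, arginase, fell from 23.5 and 29.4 CPM to 1.97 and 2.14 CPM (-3.68, standard error 0.21, adjusted p = 0.00921). *gatm.L*, the enzyme of the first step of creatine synthesis, went from 39.1 and 41.2 CPM to 4.26 and 3.81 CPM (-3.31, standard error 0.14, adjusted p = 0.00921), and the serine dehydratase gene *sds.L* from 30.0 and 32.9 CPM to 3.36 and 4.65 CPM (-2.97, standard error 0.21, adjusted p = 0.0113). Without TSA a 2 members of that list rose, and without TSA b 5 fell. Of 44 genes of the extracellular matrix and its enzymes 2 fell and none rose, but without TSA a 5 rose and 3 fell. *has2.L*, a hyaluronan synthase, fell from 31.6 and 23.2 CPM to 2.91 and 1.72 CPM (-3.56, standard error 0.32, adjusted p = 0.0169), and the secreted protease gene *htra1.S* from 22.1 and 26.9 CPM to 2.82 and 3.49 CPM (-2.95, standard error 0.21). *ptgs2.S*, a prostaglandin synthase, was far more abundant with vehicle, at 190 and 248 CPM, than with TSA, at 40.7 and 50.6 CPM (-2.26, standard error 0.18). At each of these genes the groups were well apart. Other large falls were at the protocadherin genes *pcdh7.L* (-4.14) and *pcdh7.S* (-3.83), *ckap4.S* (-3.77), a protein of the endoplasmic reticulum, and *arl4c.S* (-3.57), a small GTPase.

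Of 42 mesoderm genes tested, out of 83 copies in the count table, 16 rose with TSA and 3 fell, with a median log2 fold change of 1.31. Copies with almost no reads with vehicle could be tested only where they were higher with TSA. This can raise the share that rose and the median, here and in the organizer, endoderm and crest lists below. *myod1*, the myogenic transcription factor, rose in both copies, from 3.11 and 2.34 CPM to 44.7 and 52.8 CPM for *myod1.L* (4.16, standard error 0.20) and from 1.84 and 1.17 CPM to 23.8 and 25.3 CPM for *myod1.S* (4.03, standard error 0.26, adjusted p = 0.0104). *tbxt.S*, the Brachyury gene, went from 1.55 and 0.814 CPM to 22.7 and 20.2 CPM (4.19, standard error 0.33, adjusted p = 0.0127). Its .L copy was at 1.75 and 2.32 CPM with TSA and did not pass. *not*, a homeobox gene of the organizer and notochord, was already present with vehicle and rose by less, from 24.9 and 28.0 CPM to 84.7 and 88.7 CPM for *not.S* (1.71, standard error 0.11, adjusted p = 0.0104) and from 93.2 and 101 CPM to 171 and 171 CPM for *not.L* (0.82, standard error 0.08, adjusted p = 0.0196). The heart and lateral plate factor gene *hand2* (2.40 and 2.30), the protocadherin genes *pcdh8.2.L* (4.19) and *pcdh8.2.S* (3.92) and the forkhead gene *foxc1.L* (2.92) also rose. Those that fell were *cdx1.S*, a caudal homeobox gene, from 6.1 and 5.04 CPM to 0.224 and 0.186 CPM (-4.72, standard error 0.35, adjusted p = 0.0119), and both copies of *hes6.1* (-2.40 and -1.51). None of 13 genes of muscle structure and metabolism passed (median 0.01).

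The organizer list had 8 of 20 genes tested up and none down, with a median of 0.94, out of 29 copies in the count table. *nodal3.2.L*, a Nodal-related gene of the early dorsal program, had no read in either vehicle library and 126 and 132 reads with TSA, at least 72.7-fold higher against a floor of 3 reads over the vehicle group. *nodal3.1.L* had no read with vehicle and 83 and 133 with TSA (at least 60.8-fold), and the homeobox gene *sia1.L*, Siamois, none with vehicle and 37 and 47 with TSA (at least 23.7-fold). The *nodal3* copies lie in a cluster of near-identical genes, so how their reads were shared out is uncertain. *foxa4.L*, a forkhead gene of the dorsal midline, rose from 1.5 and 1.88 CPM to 16.5 and 17.9 CPM (3.34, standard error 0.22, adjusted p = 0.0104), and the LIM homeobox gene *lhx1.S* from 1.96 and 1.98 CPM to 15.7 and 12.41 CPM (2.83, standard error 0.23). *chrd.1.S*, the BMP antagonist Chordin, which was among the largest rises but was not matched in that list, went from 0.460 and 0.967 CPM to 22.2 and 32.9 CPM (5.24, standard error 0.40, adjusted p = 0.0121), and *chrd.1.L* did not pass (1.00, adjusted p = 0.308). The organizer gene *gsc* did not pass in either copy (-0.33 for *gsc.L*, 0.04 for *gsc.S*). Without vehicle b 6 of the 20 genes rose, and when TSA a or TSA b was left out 2 fell.

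Endoderm genes rose in 9 of 28 cases tested and fell in 2, with a median of 1.74, out of 67 copies in the count table. *sox17*, the HMG box gene that drives endoderm, rose in all 4 copies tested. *sox17a.S* went from 3.45 and 3.97 CPM to 42.7 and 55.9 CPM (3.73, standard error 0.20), *sox17a.L* from 6.1 and 5.45 CPM to 45.5 and 54.7 CPM (3.12), *sox17b.1.S* from 2.88 and 3.1 CPM to 17.3 and 25.7 CPM (2.84, standard error 0.26) and *sox17b.1.L* from 18.6 and 23.0 CPM to 64.0 and 62.9 CPM (1.61, standard error 0.14, adjusted p = 0.0151). All vehicle libraries lay below all TSA libraries for each copy. *hhex.S*, a homeobox gene of anterior endoderm and of blood vessel precursors, rose from 2.70 and 2.14 CPM to 23.5 and 24.3 CPM (3.3, standard error 0.20), *foxa1.L* from 1.38 and 0.967 CPM to 11 and 10.4 CPM (3.19, standard error 0.27), and both copies of *cebpa* by 3.15 and 3.23. *vegt.L*, the maternal T-box gene that starts the endoderm program and stands in the vegetal maternal list, rose from 86.4 and 84.1 CPM to 176 and 143 CPM (0.90, standard error 0.12, adjusted p = 0.0373), a call lost without vehicle a (0.0545) or vehicle b (0.0850). Of 7 terminal genes of liver, pancreas and kidney and 19 germline genes none passed, though 1 of the former rose without TSA a and 1 of the latter without vehicle a or TSA b, and most copies of the terminal genes had too few reads to be tested.

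**Figure D3:**
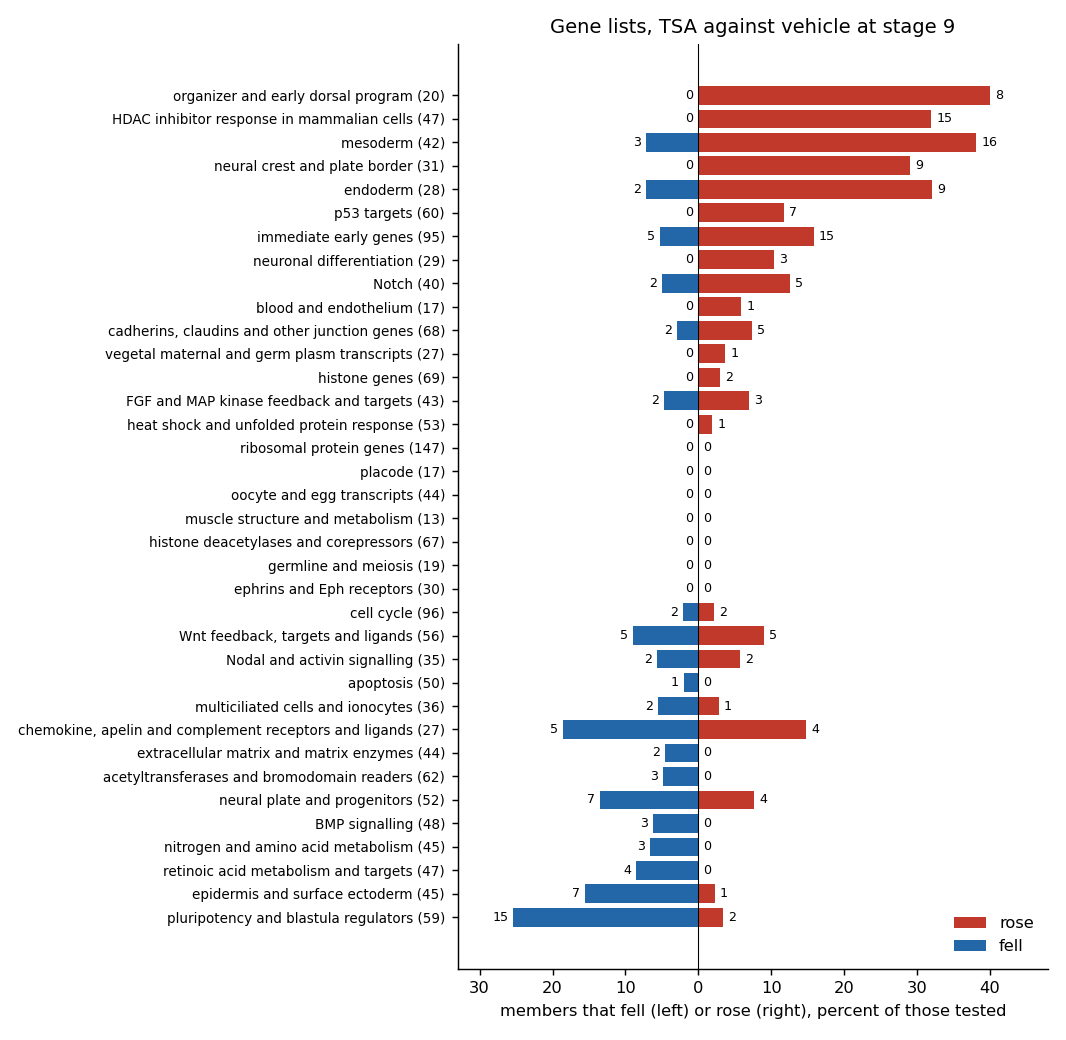
Share of the tested members of gene lists that rose (red, to the right) or fell (blue, to the left), in percent, with the number of members beside each bar and the number tested in brackets. The lists of liver, pancreas and kidney terminal genes (7 tested) and of Hox genes (1 tested) are not drawn. Copies with almost no reads with vehicle were tested only where they were higher with TSA. The lists were chosen with earlier results of these data known. Organizer, mesoderm, endoderm, HDAC inhibitor response and neural crest lists have the longest red bars (8 of 20, 16 of 42, 9 of 28, 15 of 47 and 9 of 31), and the pluripotency list the longest blue bar (15 of 59); over all genes 1.04% rose and 0.979% fell.

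In the early neural crest and plate border list 9 of 31 genes tested rose and none fell (median 1.15). The list had 46 copies in the count table. *tfap2a*, *dlx5.S*, *dlx6.S* and *zic1.S*, described above, fell but stand in other lists, so this count leaves them out. *mafb.S*, a bZIP gene of hindbrain and crest, went from 7.65 and 7.99 CPM to 74.5 and 88.1 CPM (3.38, standard error 0.14, adjusted p = 0.00921). *snai1.S*, the zinc finger repressor of epithelial genes, which stands in the mesoderm list too, rose from 17.9 and 14.4 CPM to 83.7 and 94.9 CPM (2.47, standard error 0.15, adjusted p = 0.00955). The tight junction gene *cldn5* rose in both copies, from 2.76 and 3.16 CPM to 29.2 and 40.4 CPM for *cldn5.L* (3.55, standard error 0.23) and from 4.6 and 5.45 CPM to 50.2 and 80.4 CPM for *cldn5.S* (3.70, standard error 0.28). In the separate list of cadherins, claudins and other junction genes 5 of 68 rose and 2 fell. The SoxE genes *sox9.L* (3.35), *sox9.S* (2.36) and *sox8.S* (2.75), which act in crest and cartilage, were up as well. *lmo4.2.S*, a LIM-only cofactor, rose from 9.21 and 9.11 CPM to 31.8 and 48.4 CPM (2.13, standard error 0.24, adjusted p = 0.0243), while *lmo4.2.L* did not pass (0.55, adjusted p = 0.247). In fits that left out 1 library 10 to 12 members of this list rose.

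Among Notch genes 5 of 40 rose and 2 fell. The genes that rose were all of the hes family of transcriptional repressors. *hes5.1.L* went from 0.575 and 0.305 CPM to 15.9 and 12.7 CPM (5.02, standard error 0.35, adjusted p = 0.0113), and *hes7.1.S* from 9.95 and 8.14 CPM to 54.2 and 52.7 CPM (2.56, standard error 0.14, adjusted p = 0.00921). *hes7.2.S* (2.26) and *hes2.L* (1.36) missed the threshold without vehicle b (adjusted p = 0.0542 and 0.0620). The ligand gene *jag1.L* fell by 3.29, while *jag1.S*, at 8.07 CPM with vehicle and 7.56 CPM with TSA, did not pass (-0.09). Between 3 (without vehicle b) and 10 (without TSA b) members rose. Large rises outside the lists were at *kcnj2.L*, an inward rectifier potassium channel, from 0.460 and 0.509 CPM to 14.6 and 35.1 CPM (5.66, standard error 0.58, adjusted p = 0.0209), and at *mafa.L*, a bZIP gene, from 0.518 and 0.763 CPM to 23.4 and 28.1 CPM (5.3, standard error 0.27, adjusted p = 0.00921).

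Genes known to respond to HDAC inhibitors in mammalian cells rose in 15 of 47 cases, and none fell, but 1 fell without TSA b. Their median log2 fold change was 0.20. *cdkn1a*, which encodes the cyclin-dependent kinase inhibitor p21, rose from 0.173 and 0.153 CPM to 3.68 and 5.49 CPM for the .S copy (4.77, standard error 0.43, adjusted p = 0.0171). *plk2*, a polo-like kinase, rose from 14.3 and 17.7 CPM to 67.1 and 79.1 CPM for *plk2.L* (2.19, standard error 0.16) and from 5.24 and 6.36 CPM to 43.3 and 49.3 CPM for *plk2.S* (2.99, standard error 0.16). *sesn1.S*, a sestrin, went from 5.58 and 5.90 CPM to 29.2 and 32.4 CPM (2.42, standard error 0.15). *h2aj*, the gene of a variant of histone H2A, rose from 14.8 and 15.2 CPM to 56.9 and 67.6 CPM for *h2aj.L* (2.05, standard error 0.13, adjusted p = 0.0104) and from 82.4 and 80.0 CPM to 163 and 183 CPM for *h2aj.S* (1.09, standard error 0.09), and these were the 2 of 69 histone genes that passed (4 rose without TSA a). Of 60 p53 targets 7 rose and none fell, and 6 of them are the *cdkn1a*, *plk2* and *sesn1* copies that the HDAC inhibitor list holds too. The remaining one was the ubiquitin ligase gene *mdm2.L* (1.18). Of 96 cell cycle genes 2 rose and 2 fell, 2.08% each way beside 1.04 and 0.979% of all genes. These counts changed in each fit that left out 1 library. Both copies of cyclin E2 fell, from 425 and 538 CPM to 181 and 220 CPM for *ccne2.L* (-1.27, standard error 0.15) and from 371 and 424 CPM to 188 and 207 CPM for *ccne2.S* (-1.01, standard error 0.10), and *ccndx.L*, a D-type cyclin, rose from 1.67 and 1.63 CPM to 27.3 and 35.2 CPM (4.24, standard error 0.22).

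Immediate early genes, which respond quickly to growth factors and stress, rose in 15 of 95 cases and fell in 5. Among those that fell was *ptgs2.S*, described above. *egr4.L*, a zinc finger gene, went from 3.91 and 5.19 CPM to 41.0 and 54.8 CPM (3.39, standard error 0.23, adjusted p = 0.0111), *egr2.L* from 4.2 and 4.02 CPM to 22.2 and 21.0 CPM (2.39, standard error 0.17), and *egr1.L* from 11.4 and 16.8 CPM to 53.4 and 47.9 CPM (1.84, standard error 0.21). *myc.L*, the bHLH factor of growth, rose from 14.8 and 13.1 CPM to 57.2 and 73.0 CPM (2.22, standard error 0.17, adjusted p = 0.0121). Without TSA a 23 of the list rose and 10 fell, without TSA b 16 and 11, and without vehicle a 14 and 8. Of 53 genes of the heat shock and unfolded protein response 1 rose, the cochaperone gene *bag3.L* (1.25, adjusted p = 0.0432), and it did not pass in any fit without 1 of the libraries (0.0598 to 0.206). Without TSA a another 6 of the 53 rose.

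No gene of a histone deacetylase passed, and *hdac1*, *hdac2*, *hdac3* and *hdac8*, among the targets of TSA, were estimated near 0. For *hdac2.L* the estimate was loose, from -0.43 to 0.43 when 1 library was left out. *hdac1.L* stood at 568 and 578 CPM with vehicle and at 571 and 590 CPM with TSA (0.02, standard error 0.05), and *hdac1.S* at 407 and 426 CPM and at 414 and 425 CPM (0.01, standard error 0.06). *hdac2*, *hdac3* and *hdac8* copies changed by -0.13 to 0.01, with standard errors of 0.12 to 0.36, and did not pass. None of 67 genes of histone deacetylases and corepressors passed (median -0.06). Among acetyltransferases and bromodomain readers 3 of 62 fell and none rose, but 1 rose when TSA a or TSA b was left out, and 1 fell without vehicle b. *ep300*, the p300 acetyltransferase, fell in both copies, from 83.4 and 99.5 CPM to 32.4 and 28.4 CPM for *ep300.L* (-1.59, standard error 0.14, adjusted p = 0.0151) and from 26.6 and 35.0 CPM to 12.3 and 12.8 CPM for *ep300.S* (-1.29, standard error 0.18, adjusted p = 0.0391), the latter not without vehicle b (0.126). *ccnt2.S*, a cyclin of the elongation factor P-TEFb, fell by 0.69 and did not pass without vehicle a, vehicle b or TSA b (adjusted p = 0.0998, 0.187 and 0.0676). None of 147 ribosomal protein genes, 44 oocyte and egg transcripts or 30 ephrin and Eph genes passed, and their medians lay between 0.01 and 0.02. In the ephrin and Eph list 1 fell without vehicle a or TSA b and 2 fell without TSA a.

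*Xenopus laevis* carries most genes as a pair of homeologs, .L and .S, on its long and short subgenomes, and short reads from near-identical copies may have been shared between them. Both copies could be tested for 5553 pairs. Both copies rose in 33 pairs and both fell in 26, and no pair was called in opposite directions. Over all genes tested 1.04% rose and 0.979% fell, and whether opposite calls were fewer than in unrelated genes was not tested. In 66 pairs only 1 copy rose, and the other had the same sign in 63 and was past 1 on the log2 scale in 38 (median 1.11). In 92 pairs only 1 copy fell, and the other had the same sign in 75 and was past -1 in 21 (median -0.46). A partner with almost no reads with vehicle could be tested only where it was higher with TSA, as *hhex.L* was. The partners of copies that rose and of copies that fell therefore cannot be set against each other. In *ckap4* the .S copy fell from 21.3 and 30.5 CPM to 1.43 and 2.37 CPM while *ckap4.L* moved by 0.02. In *cdon*, a coreceptor for Hedgehog, *cdon.L* fell by 3.63 and *cdon.S* changed by -0.02. Over the 217 pairs with a call the changes of both copies had a Pearson r of 0.739, and over all 5553 pairs 0.600. The 217 were selected for a change, and both values only describe pairs that share their libraries.

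**Figure D4:**
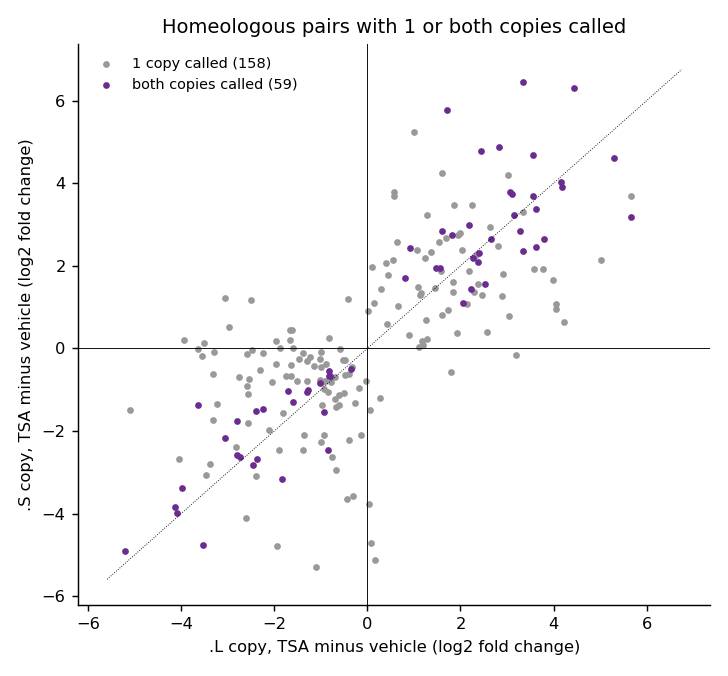
Log2 fold change of the .L copy (horizontal) against the .S copy (vertical) for 217 homeologous pairs with 1 copy called (grey, 158) or both (purple, 59). The purple points lie in the upper right (33 pairs) or lower left (26 pairs), none in the upper left or lower right, and many grey points below the horizontal line lie near 0 on 1 axis.

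The same treatment was sampled again at stage 13, from other libraries. There 36.9% of 24707 genes tested rose and 35.8% fell, so most lists contain many calls, and the share of reads in genes was 63.9 and 65.4% with TSA and 74.7 and 75.3% with vehicle, a difference not seen at stage 9. Of the genes that rose at stage 9, 228 could be tested at stage 13, and 202 (88.6%) rose again while 14 fell. Of those that fell, 203 could be tested, 145 (71.4%) fell again and 37 (18.2%) rose. Among all genes tested at stage 9, 34.6% rose and 37.3% fell at stage 13. *krt12.4.L* fell by 10.21 at stage 13 against 5.11 at stage 9, *chrd.1.S* rose by 9.33 against 5.24, *cldn5.L* rose by 11.14 against 3.55, and *myod1.L* rose by 5.80 against 4.16. Whether the effect of TSA differs between stages was tested as an interaction in all 8 libraries. The effect was higher at stage 13 at 20.4% of 26144 genes and lower at 27.3%. These shares move with the scaling, and with library totals alone 9597 genes were higher and 3983 lower, in place of 5341 and 7132, as the median shifted by 0.67.

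Some of the genes called at stage 9 were called in the other direction at stage 13. *sox3.S* fell by 0.54 at stage 9 and rose by 2.93 at stage 13 (difference 3.38, standard error 0.15, adjusted p = 3.37e-06), and *sox3.L* fell by 0.83 and rose by 2.12 (difference 2.85). *sfrp2.S* fell by 2.47 and rose by 1.64 (difference 4.02, standard error 0.21), and *lhx5.S* fell by 2.69 and rose by 0.85 (difference 3.45). On a scale common to all libraries, *sox3.S* averaged 613 CPM with vehicle and 453 CPM with TSA at stage 9, and 38.7 CPM and 284 CPM at stage 13, so the level with vehicle had dropped far below the level with TSA. *cyp26a1.S* went from 93.3 to 3.62 CPM with TSA at stage 9, and stood at 13.4 CPM with vehicle and 42.6 CPM with TSA at stage 13 (difference 6.42, standard error 0.58, adjusted p = 4.95e-05). *cdx1.S* (difference 7.85), *has2.L* (7.61) and *sds.L* (5.42) likewise fell at stage 9 and rose at stage 13. *has2.L* was low at stage 13, at 0.0968 CPM with vehicle and 1.73 CPM with TSA. At stage 9 it averaged 22.4 CPM with vehicle and 2.04 CPM with TSA. Named after their values were seen, *zic1.S* fell by 1.32 and rose by 5.55, and *sfrp2.L* fell by 0.85 and rose by 4.67. In the opposite direction *lmo4.2.S* rose by 2.13 at stage 9 and fell by 3.33 at stage 13, from 451 CPM with vehicle to 43.1 CPM with TSA (difference -5.55, standard error 0.25, adjusted p = 3.83e-06). *cxcr4.S* (0.91, then -1.33) and *myt1.S* (2.80, then -1.18) turned the same way, with differences of -2.33 and -4.07.

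**Figure D5:**
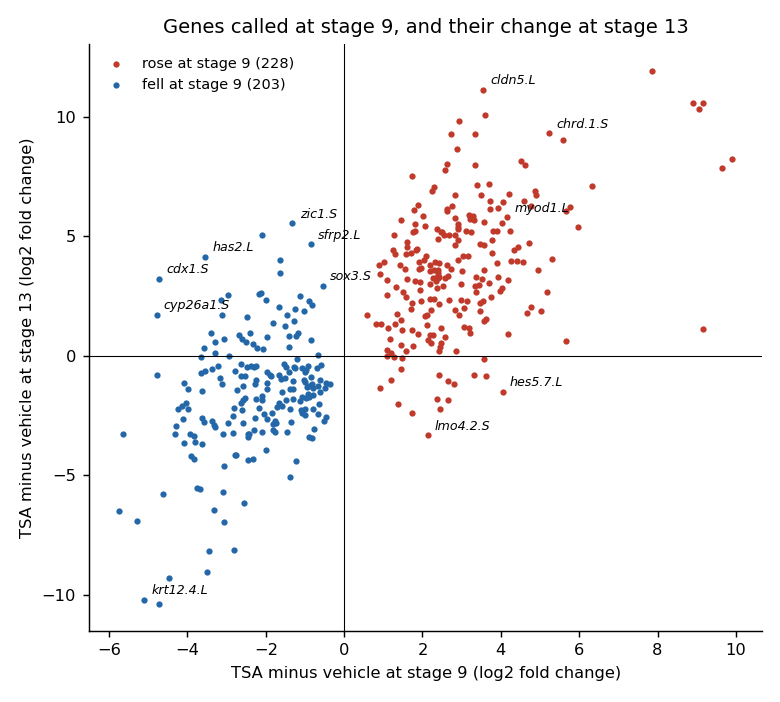
Log2 fold change of TSA over vehicle at stage 9 (horizontal) and at stage 13 (vertical) for the genes called at stage 9 that could be tested at stage 13, 228 that rose (red) and 203 that fell (blue). Most red points lie above 0 (202 rose again) and most blue points below (145 fell again), with *has2.L*, *cdx1.S*, *cyp26a1.S*, *zic1.S* and *sox3.S* among 37 blue genes that rose at stage 13.

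The course of these genes in explants without TSA was read from libraries that share none with those above. The stage 9 libraries of the series differ. On a common scale the genes lowered by TSA had a median of 20.7 CPM in their own vehicle libraries, 20.9 CPM in the vehicle libraries of the IBET762 series and 1.42 CPM in untreated explants, where 211 of the 216 (97.7%) lay below the vehicle level, compared with 47.3% of all genes. The untreated level was lower than the 4.79 CPM reached with TSA, and series and treatment cannot be told apart here. Between stages 9 and 13, 35.9% of 21871 genes rose and 35.4% fell in uninjected explants, untreated at stage 9 and with DMSO at stage 13. With library totals alone 5440 genes rose and 11016 fell, in place of 7848 and 7746, as the median shifted from -0.03 to -0.88. Of the genes that TSA lowered at stage 9, 192 could be tested, and 152 (79.2%) rose with time and 12 (6.25%) fell, compared with 32.3 and 37.9% of all genes tested at stage 9. In the vehicle libraries of the IBET762 series, where 36.4% of 21902 genes rose and 37.2% fell, the count was 119 up and 54 down of 212 (56.1 and 25.5%). *arg1.L*, *gatm.L*, *cxcl12.L* and *krt12.4.L*, which TSA lowered, rose between the stages in uninjected explants by 8.2, 9.2, 8.33 and 13.33 on the log2 scale, where the untreated stage 9 level was low. In the vehicle libraries of the IBET762 series the same genes rose by 2.65, 2.59, 3.37 and 7.105. *sox3.S* fell by 2.65 in the former and by 2.63 in the latter. Genes that rose with TSA had medians of 1.94 CPM with vehicle, 14.3 CPM with TSA, 1.87 CPM in the IBET762 vehicle libraries and 0.692 CPM in untreated explants, and in the uninjected course 74 of 168 rose and 37 fell.

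IBET762 blocks the bromodomains that bind acetylated histones, and was given from the 2-cell stage with its own vehicle. At stage 9 it raised 0.191% and lowered 2.18% of 20978 genes. Of the genes that TSA lowered 204 could be tested with IBET762, 126 (61.8%) fell and none rose. Of the genes that TSA raised 189 could be tested, and 13 rose and 15 fell. No library is shared between the inhibitors, but the inhibitor and the series it belongs to cannot be told apart. *cyp26a1.S* fell by 5.24 with IBET762 and by 4.79 with TSA (difference -0.44, standard error 0.24, adjusted p = 1), *bmp4.L* by 3.16 and 3.07 (difference -0.08, standard error 0.35), and *prdm1.S* by 4.34 and 4.77 (difference 0.44, standard error 0.34). None of these differences passed the test, which does not show that the inhibitors acted alike on these genes.

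The IBET762 effect was lower than the TSA effect at 0.919% of 22630 genes and higher at 0.0442%. Among the 216 genes that TSA lowered it was lower at 9 and higher at 2. Among the 230 genes that TSA raised it was lower at 68 and higher at 0. The TSA libraries that selected these genes also enter the difference. Of the genes named by rule, 7 were lowered by IBET762 and raised by TSA. *aplnr.L* fell by 3.12 with IBET762 and rose by 2.28 with TSA (difference -5.38, standard error 0.44, adjusted p = 0.00300), and *aplnr.S* fell by 2.80 and rose by 2.18 (difference -4.96). *lefty.L* fell by 2.74 and rose by 1.81 (difference -4.54, standard error 0.33, adjusted p = 0.00224). *not.S* fell by 1.37 and rose by 1.71 (difference -3.06), *not.L* fell by 1.95 and rose by 0.82 (difference -2.75), and *cxcr4.S* fell by 3.49 and rose by 0.91 (difference -4.37). *sox17b.1.L* fell by 1.15 and rose by 1.61 (difference -2.74, standard error 0.21, adjusted p = 0.00280). Among the 13 genes that rose with both inhibitors were *myod1.L* (2.02 with IBET762), *mafa.L* (3.4), *wnt9b.S* (2.59), *egr1.L* (1.42), *h2aj.L* (2.38) and *h2aj.S* (1.71).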

How the data were processed

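Values were whole-number counts of reads per gene, deposited by the authors as HTSeq output, not scaled. The submitters' processing notes name fastp 0.23.2 for trimming, STAR 2.6.0 for alignment and HTSeq 1.99.2 for counting. Strand setting and annotation version are not given in the sources used here. Tables of the authors' own DESeq comparisons were not used. Count columns were matched to conditions by name, and their letters are kept.

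Counts of the 4 stage 9 libraries were fitted alone with edgeR 4.0.16 in R 4.3.3 (filterByExpr with minimum count 10 and total 15, TMM scaling, two-sided quasi-likelihood F test, Benjamini-Hochberg over all genes tested, threshold 0.05). Standard errors were derived as the absolute change divided by the root of the F statistic. Replicate pairs were checked for duplicates (chi-square per degree of freedom 8.95 or more). Differences between effects were interaction terms, and levels across series used 1 TMM scaling of 20 libraries. Intervals and floors cover counting error only. Alternatives included DESeq2 1.42.0, other scalings and filters, a block and leaving out libraries. The test was tried on simulated counts.

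Members, gene lists and the rule for named genes were chosen with earlier results of these data known. The rule took genes the study names for TSA at stage 9, the 12 largest rises and falls with a symbol and mean log2 CPM of at least 2, up to 4 called members per list, and HDAC genes. Gene models carry a provisional name from the files. The genes *sall1.L*, *ventx1.2.S*, *klf17.L*, *krt12.5.S*, *dlx3.L*, *irx1.S*, *irx2.L*, *zic1.S*, *axin2.S*, *tcf7l1*, *fzd8.L*, *jag1.L*, *hand2*, *pcdh8.2*, *foxc1.L*, *hes6.1*, *nodal3.1.L*, *sia1.L*, *chrd.1.L*, *gsc*, *cebpa*, *sox8.S*, *sox9*, *mdm2.L*, *cdon*, *ckap4.L*, *sfrp2.L* and a model named as *klf4* were named after their values were seen. Some genes that the rule took are not reported here.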

Additional observations from a re-analysis of the deposited data

Results flagged for a closer look

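The effect of TSA differed between stages 13 and 9 at 12473 genes by the test of the difference itself, and between IBET762 and TSA at stage 9 at 218. Among the genes named, those with opposite calls at the stages had differences on the log2 scale, stage 13 minus stage 9, of 6.42 for *cyp26a1.S*, 7.85 for *cdx1.S*, 7.61 for *has2.L*, 5.42 for *sds.L*, 3.45 for *lhx5.S*, 4.02 for *sfrp2.S*, 2.85 for *sox3.L* and 3.38 for *sox3.S*, all of which fell at stage 9 and rose at stage 13. At stage 13 *has2.L* was low, at 0.0968 CPM with vehicle and 1.73 CPM with TSA. *cxcr4.S* (-2.33), *lmo4.2.S* (-5.55) and *myt1.S* (-4.07) rose at stage 9 and fell at stage 13. Between the inhibitors, the IBET762 effect minus the TSA effect was -2.75 for *not.L*, -3.06 for *not.S*, -4.37 for *cxcr4.S*, -2.74 for *sox17b.1.L*, -4.54 for *lefty.L*, -4.96 for *aplnr.S* and -5.38 for *aplnr.L*, all lower with IBET762 and higher with TSA. The stage comparison crosses libraries whose share of reads in genes differed at stage 13, and the part of that difference in the result was not tested.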

How the results depend on the processing

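Counts of genes changed by TSA at stage 9 stayed within 1.5 times of 446 with RLE factors, library totals, no filter, a minimum mean of 1 CPM and summed homeologs (319 to 504). DESeq2 called 918 (454 rose, 464 fell), all 8 libraries of the TSA series in 1 fit 1114 (618 and 496, 433 of the 446 among them), and a test against a fold change of 1.5 called 267 (146 and 121). Leaving out 1 library gave 279 to 690 genes (169 to 411 rose, 110 to 306 fell), a lone library being assumed to vary like the other group. The letters of the count columns are not tied to any shared clutch. With them as a replicate block 2981 genes passed (1339 rose, 1642 fell), all 446 among them; same-letter libraries deviated together (correlation 0.730), which with 2 letters does not show that they were paired. The difference between IBET762 and TSA passed at 218 genes, at 503 with DESeq2, 478 without the filter, 1343 with the block and 68 to 167 without 1 library of either TSA group or an IBET762 group. Counts for the stage difference (10340 to 13946) and the uninjected course (14754 to 17531, or 16116 in the IBET762 vehicle libraries) stayed within 1.5 times, but with library totals alone the medians moved to 0.67 and -0.88.

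Of 134 genes named by the rule 111 passed, all of them also with DESeq2, 95 passed in every fit without 1 library, and none changed direction in the alternatives run. Of the named genes that did not pass, 8 passed with DESeq2 and 13 with the replicate block. Genes that did not pass and lay near 0 changed sign. With library totals *pou5f3.3.S* was at 0.00538 and *hdac8.L* at 0.0214. Without the filter *hdac3.S* was at -0.00382, *cxcr4.L* at -0.00267 and *hdac1.S* at -0.00139. In the fit of 8 libraries *pou5f3.3.L* was at 0.0320, *pou5f3.3.S* at 0.0550 and *hdac8.L* at 0.0691. Without 1 library the log2 fold change ranged from -0.31 to 0.0369 for *hdac2.S*, -0.0942 to 0.00826 for *pou5f3.3.L*, -0.25 to 0.18 for *pou5f3.3.S*, -0.13 to 0.13 for *hdac8.L*, -0.11 to 0.14 for *hdac3.S*, -0.11 to 0.13 for *cxcr4.L*, -0.0285 to 0.0487 for *hdac1.S*, -0.43 to 0.43 for *hdac2.L*, -0.00568 to 0.0415 for *hdac1.L* and -0.14 to 0.55 for *prdm14.L*. The cause of these changes was not tested. With 3 or fewer reads in a group a fold change was only loosely measured at this depth. It is therefore given with a counting interval, or as a bound where that group had no read.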

Other observations

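Called genes were placed in chromosome order by matching 18981 of the 22067 tested genes to the RefSeq list of assembly v10.1, used for order only. Among 12188 neighbouring pairs with both genes tested, 246 had 1 or more genes that rose and 238 had 1 or more that fell. Both rose in 15 pairs and both fell in 4, and no pair had 1 gene up and 1 down. Over all genes tested 1.04% rose and 0.979% fell, and whether the pair counts differ from those of genes in random order was not tested. Several of the 15 are tandem copies of a family whose reads may be shared, such as *hes5.5.L*, *hes5.6.L* and *hes5.7.L*, *hes7.1.S* and *hes7.2.S*, and *sox17a* with *sox17b.1* on both subgenomes. Pairs that fell included *dlx5.S* with *dlx6.S* and the unrelated neighbours *lhx5.L* and *sds.L*.

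In the *hes5* cluster *hes5.1.L*, *hes5.2.L*, both copies of *hes5.5* and *hes5.6*, and *hes5.7.L* rose. Apart from *hes5.1.L* these were picked after their values were known, as was *hes6.1.L*, which is not a *hes5* gene. *hes5.1.S* (2.13, adjusted p = 0.195) and *hes5.7.S* (0.96, adjusted p = 0.383) did not pass. *hes5.10.L* (-2.39, adjusted p = 0.0666) and *hes5.10.S* (-2.47, adjusted p = 0.0588), which did not pass either, lay lower with TSA. *hes5.5.S*, a repressor gene of the Hes family, went from 2.30 and 1.78 CPM to 11.5 and 14 CPM (log2 fold change 2.64, adjusted p = 0.0180), and *hes6.1.L*, whose mouse homolog inhibits other Hes factors, from 18.3 and 21.8 CPM to 3.85 and 3.77 CPM (-2.40, adjusted p = 0.0127). At stage 13 *hes5.5.S* fell by 1.85 and *hes6.1.L* rose by 0.97. The Engrailed homeobox gene *en1.S* had 2 reads with vehicle and 208 with TSA, a ratio of 87.9 (95% counting interval 24.0 to 730), and the POU gene *pou3f1.L* had 2 and 133, a ratio of 56.2 (15.3 to 469).

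The following genes were also chosen after their values were seen. The cytokine signalling inhibitor gene *socs1.L* went from 3.11 and 2.70 CPM to 0.179 and 0.186 CPM (-3.94). Its more abundant copy *socs1.S* averaged 14.5 CPM with vehicle and 16.7 CPM with TSA and did not pass (0.20). The antiviral gene *rsad2.L* went from 5.64 and 8.40 CPM to 0.896 and 1.26 CPM (-2.70). The proton-sensing receptor gene *gpr65* fell by 3.99 in the .L and by 3.39 in the .S copy. At higher levels, the chromatin protein gene *hmgb2.S* fell by 0.50, the nucleolin gene *ncl.L* by 0.51 and the ribosomal RNA transcription factor gene *ubtf.L* by 0.82, small changes with standard errors of 0.05, 0.06 and 0.09.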
